A study of Mus musculus with 96 samples.

Results

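The 8 genes described here, Fn1, Sparc, Postn, Tnc, Tnn, Thbs1, Thbs2 and Thbs3, encode secreted glycoproteins of the bone matrix. They were chosen by name from the 37945 genes of the table, and together they have 36 of its 94545 transcripts. Total RNA was sequenced from cultures of calvarial cells, that is cells of the skull cap, from newborn mice of 42 Collaborative Cross strains, a panel of recombinant inbred lines bred from several founder strains. Each group is 1 strain, named by its CC number, with no added agent or engineered allele given in the labels. All groups share the rest: pups aged 3 to 5 days, enzymatic release of the cells, 48 h of growth and 10 days in mineralizing medium. The labels give no sex, litter or batch. Whether libraries of a strain are separate animals or cultures is not stated, and p-values therefore reflect the spread of these libraries only, which may be technical. The 96 samples gave 95 independent libraries, since a CC030 sample sequenced 2 times entered as the mean of its runs. A strain was covered by 2 libraries in 31 cases, by 3 in 2, by 4 in 6 and by a single one in CC011, CC024 and CC035.

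Matricellular proteins sit in the extracellular matrix and adjust how cells attach to it and respond to growth factors, more than they carry load. Fibronectin, from Fn1, is assembled by cells into fibrils on which collagen is laid down, and SPARC, also called osteonectin, binds collagen and calcium and is abundant in bone. Periostin (Postn), tenascin-C (Tnc) and tenascin-N (Tnn) are typical of the periosteum and of tissues under tension. Thbs1, Thbs2 and Thbs3 encode thrombospondins, of which those from Thbs1 and Thbs2 bind collagens, proteases and the receptors CD36 and CD47.

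The sequences that follow are those on which the transcript results turn. Postn and Tnc are spliced in more than 1 form, and the deposited table holds an estimate for each annotated transcript. In the GENCODE M21 models, Postn-202 has 23 exons, of which exon 17 (81 nt) and exon 21 (84 nt) are each left out of some transcripts. Both lengths are multiples of 3, so leaving either out keeps the reading frame. Postn-203 keeps the 81-nt exon alone, Postn-201 the 84-nt exon alone, Postn-202 both and Postn-204 neither. The exons read as follows.
Postn 81-nt exon: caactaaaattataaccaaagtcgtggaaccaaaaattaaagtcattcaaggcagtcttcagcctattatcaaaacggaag
Postn 84-nt exon: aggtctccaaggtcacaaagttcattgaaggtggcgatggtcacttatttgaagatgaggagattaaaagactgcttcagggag

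A short Postn model, Postn-206, has 655 nt in 5 exons and lacks the 81-nt and 84-nt exons and the constitutive 78-nt exon between them. The junction of its exons 3 and 4 is held by none of the long Postn transcripts. It is shown with 15 bases on each side, the bases of exon 4 in capitals.
Postn-206 junction of exons 3 and 4: aacgaatcattacagACACACCTGCAAAGA

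Tnc-203 alone holds a further 273-nt coding exon, its exon 14, shown because its inclusion differed between strains. Exons of this length in Tnc encode fibronectin type III repeats, the part of tenascin-C that splicing is known to vary.
Tnc variable exon: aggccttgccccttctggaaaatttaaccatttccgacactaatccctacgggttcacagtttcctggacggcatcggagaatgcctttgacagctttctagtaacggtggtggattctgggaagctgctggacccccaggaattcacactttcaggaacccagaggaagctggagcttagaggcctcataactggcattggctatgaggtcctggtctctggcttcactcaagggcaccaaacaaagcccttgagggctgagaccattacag

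Tnc-201 and Tnc-204 share 1 coding sequence of 6057 nt. They differ in that Tnc-204 begins with a noncoding first exon of 267 nt that no other Tnc transcript has. The 250 bases before a RefSeq start of Tnc (GRCm38.p6, chr4:64047016-64047265, minus strand) are given because the 2 transcripts differ at their 5' end. Capitals mark GGGCGG and TATAAA, searched on both strands.
Tnc promoter: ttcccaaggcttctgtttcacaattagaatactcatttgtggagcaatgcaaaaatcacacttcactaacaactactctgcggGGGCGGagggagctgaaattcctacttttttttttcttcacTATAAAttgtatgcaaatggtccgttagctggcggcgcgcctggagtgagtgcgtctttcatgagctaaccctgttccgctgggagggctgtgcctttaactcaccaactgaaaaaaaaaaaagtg

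Thbs2 and Thbs3 moved together across strains (below), and their windows (chr17:14694263-14694512, minus strand, and chr3:89214930-89215179, plus strand) are shown for comparison. Capitals mark the same motifs on either strand.
Thbs2 promoter: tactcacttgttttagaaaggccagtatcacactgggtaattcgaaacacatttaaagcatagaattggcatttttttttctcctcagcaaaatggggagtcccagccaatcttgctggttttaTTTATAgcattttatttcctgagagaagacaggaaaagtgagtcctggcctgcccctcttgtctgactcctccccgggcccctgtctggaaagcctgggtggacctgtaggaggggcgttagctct
Thbs3 promoter: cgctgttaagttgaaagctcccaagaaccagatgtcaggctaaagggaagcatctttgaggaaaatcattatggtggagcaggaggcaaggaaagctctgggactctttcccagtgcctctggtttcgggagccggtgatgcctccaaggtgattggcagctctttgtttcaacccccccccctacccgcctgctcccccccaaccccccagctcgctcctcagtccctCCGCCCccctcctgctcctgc

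The Thbs2 window held 1 TATAAA and no GGGCGG, and the Thbs3 window the reverse, while the Tnc window held 1 of each. Of all 32851 RefSeq windows of this length, 12.4% held TATAAA and 32.7% held GGGCGG. Windows were found for 6 of the 8 genes (Sparc, Postn, Tnc, Tnn, Thbs2 and Thbs3). A match is a description of the letters only.

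The cultures carried osteoblast markers throughout. All 15 osteoblast markers searched were above 0 in every library, with Col1a1, the chain of type I collagen, at 713 to 5119 scaled TPM (TPM is a length-corrected relative abundance of a transcript, here divided by a factor per library) and Ibsp, bone sialoprotein, at 51.9 to 5446. Strains also differed in other cells: the summed level of 15 macrophage markers ran from 29.3 scaled TPM in CC041 to 2077 in CC030, and that of 9 smooth muscle and pericyte markers from 302.8 in CC044 to 1743 in CC015. The 7 endothelial markers summed to 0.627 to 2.74 and the 4 erythroid markers to at most 0.52, with Hbb-bs at 0 in every library. In such bulk samples, fewer cells of a type and less RNA per cell cannot be told apart. The number of reads behind each value is unknown, since the table gives no counts.

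Sparc had the highest level of the 8 genes in 95 of 95 libraries and Thbs3 the lowest in 95 of 95. Over libraries, the median level was 3827 scaled TPM for Sparc (2063 to 5404), 409.2 for Thbs2 (222.1 to 1027), 358.5 for Fn1 (172.1 to 623.3), 341.8 for Postn (94.6 to 734.2), 238.7 for Tnc (97.1 to 525), 210.8 for Thbs1 (69.2 to 923.7), 57.5 for Tnn (18.7 to 196.4) and 4.89 for Thbs3 (2.55 to 13.5). The ends of this order held in every library, and Thbs1 was above Tnn in 94 of 95. The genes between did not separate: Thbs2 was above Fn1 in 61 of 95 libraries, Fn1 above Postn in 57, Postn above Tnc in 74 and Tnc above Thbs1 in 54. Thbs3 overlaps Mtx1, a gene on the opposite strand with a median of 27.7 scaled TPM. The kit was stranded, but whether the counting used strand is not stated. Over 42 strain means, Thbs3 and Mtx1 levels had an r of 0.186 (permutation p = 0.2375; 0.195 without the 2 strains farthest from the Thbs3 median) and a rho of 0.225 (permutation p = 0.152), so that a relation was not shown.

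**Figure D1:**
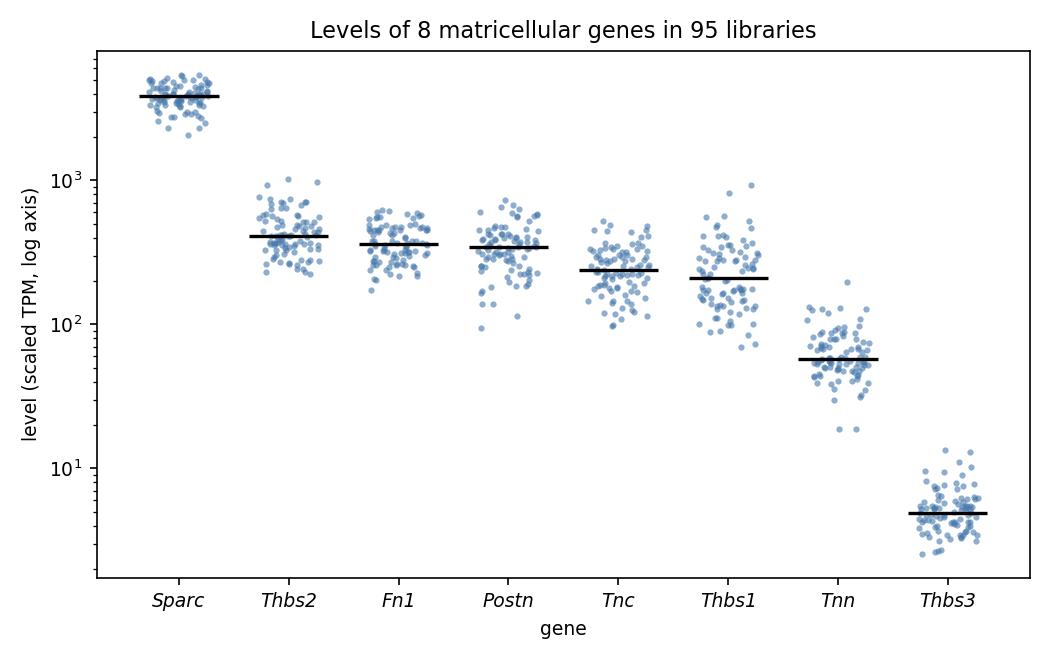
Level of each gene in scaled TPM (log axis), with 1 point for each of 95 libraries and a bar at the median. Sparc lies at 2063 to 5404 and Thbs3 at 2.55 to 13.5, clear of the other genes, while the ranges of Thbs2, Fn1, Postn, Tnc and Thbs1 overlap.

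The first question was whether strain sets the level of these genes. All but Fn1 passed the test of a strain effect over 39 strains and 92 libraries (limma's moderated F, adjusted p under 0.05), that is 7 of 8. That share has to be read against a background of 81.5% of all 15760 genes tested. The share of variance that lies between strains (the intraclass correlation) had a median of 0.69 over the 8 genes. Over all genes it was 0.47, with quartiles of 0.28 and 0.64. It ran from 0.18 for Fn1 and 0.55 for Thbs3 to 0.74 for Tnc and 0.75 for Postn. These values depended on which strains were used (given below). When each strain was set against the mean of the others, the members gave 36 higher calls in 312 tests (11.5%, where 7.72% of all such tests were called higher) and 33 lower calls (10.6%, where 7.05% were called lower). At least 1 member was called in 32 of the 39 strains, and 9 strains had calls in both directions. Such counts of strains were not made for other sets of 8 genes. The counts of 32 and 9 strains therefore do not show that the members differ from other genes.

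Fn1 was the one gene whose libraries of 1 strain spread nearly as far as the strains. Its SD within strains was 0.39 on the log2 scale, and the CC007 libraries, for example, stood at 576.7 and 254.6 scaled TPM. CC001 had the highest strain mean, with 582.6 and 589.8. CC023 had the lowest, with 172.1 and 201.9, below every library of the other strains, of which the lowest was at 208. Strain means spanned 1.65 on the log2 scale, yet the strain effect did not pass (adjusted p = 0.0644). On the deposited TPM without further scaling it did (adjusted p = 0.0461). CC023 was the only strain called, lower by a log2 difference of -0.96 (SE 0.27, adjusted p = 0.0109). 

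Sparc spanned 1.12 on the log2 scale between its highest and lowest strain mean, with an SD within strains of 0.16 (adjusted p = 3.65e-09). CC012 was highest, at 4986 and 5404 scaled TPM, followed by CC061 at 4884 and 5353 and CC019 at 4754 and 5016. CC043 (2063 and 2774), CC055 (2315 and 2507) and CC071 (2311 and 2730) were lowest. These 3 low strains do not overlap the 3 high ones in any library, but they were picked as the ends of the order, so this is no test. Against the other strains, CC012 was higher by 0.48 (SE 0.12, adjusted p = 0.00293) and CC043 lower, at -0.67 (SE 0.12, adjusted p = 2.93e-05). Sparc was called higher in 7 strains and lower in 5. Each sample title carries a number whose meaning is not given. Among strains whose title numbers lie at least 20 apart, the strain effect on Sparc was not past the threshold (adjusted p = 0.224).

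Postn varied over 2.32 on the log2 scale (adjusted p = 1.05e-11) and had the highest intraclass correlation of the 8 genes. CC009 was highest, at 584.1 and 674.1 scaled TPM, with CC061 (556.1 and 652.6) and CC002 (568.4 and 635.3) next. CC025 was lowest, with 166.3, 113.7, 94.6 and 138.8 in its 4 libraries, followed among strains with several libraries by CC013 at 185.7 and 138.1. Of the libraries of other strains, 1 lay below the highest CC025 value. The CC025 difference, -1.46 (SE 0.14, adjusted p = 8.39e-12), had the smallest adjusted p of any strain and member. Postn was called higher in 6 strains and lower in 6.

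Tnc spanned 2.18 on the log2 scale (adjusted p = 4.22e-11). The highest tested strains were CC001, at 453.2 and 485.6 scaled TPM, and CC004, whose 4 libraries ran from 277 to 525. The lowest were CC013 (97.1 and 109.6), CC065 (114.5 and 122.3) and CC030 (119.3 and 140.3). CC001 was higher by 1.02 (SE 0.20, adjusted p = 0.000164) and CC013 lower, at -1.22 (SE 0.20, adjusted p = 8.28e-06). The high and low strains do not overlap, which is no test either, since these values picked them. CC013 was also called lower in Postn and Sparc, and CC004 higher in both.

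Tnn, the tenascin found mainly in bone and its periosteum, spanned 3.04 on the log2 scale (adjusted p = 4.09e-08), a range like that of Thbs1 (2.98). CC023 was highest, at 125.2 and 196.4 scaled TPM, and CC015 stood at 87.6, 127.2, 132.1 and 87.8. CC044 was lowest, at 18.7 in both libraries, where no library of another strain was below 29.8. CC001 was next, at 29.8 and 32.2. The differences from the other strains were 1.44 for CC023 (SE 0.24, adjusted p = 9.75e-06) and -1.68 for CC044 (SE 0.24, adjusted p = 3.48e-07). CC023, with the highest Tnn, had the lowest Fn1, and CC001, with the highest Fn1 and Tnc, was among the lowest in Tnn. Across 42 strain means neither pair passed. Fn1 with Tnn had r = -0.31 (rho -0.18, adjusted permutation p = 0.154; -0.08 without CC023 and CC037). Tnc with Tnn had r = -0.09 (rho -0.11, adjusted permutation p = 0.648).

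Thbs1, an activator of latent TGF-beta, spanned 2.98 on the log2 scale (adjusted p = 4.69e-11). CC030 (923.7 and 554.5 scaled TPM) and CC071 (518.8 and 818.8) were highest. CC043 (69.2 and 117.1), CC075 (88.4 to 99.6 in 3 libraries) and CC040 (72.9 and 127.2) were lowest. No library of the 2 high strains overlaps the low ones, a description only, since the strains were picked by these values. CC030 was higher by 1.81 (SE 0.28, adjusted p = 1.62e-06) and CC043 lower, at -1.25 (SE 0.28, adjusted p = 0.000786). CC030 and CC071 also had the lowest and second lowest osteoblast score of the 42 strains and macrophage sums of 2077 and 994.2 scaled TPM. Over the 42 strain means, however, Thbs1 and the macrophage score had r = 0.02 (rho -0.04, adjusted permutation p = 0.924), which did not pass. The part of these cells in the Thbs1 difference was not tested.

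Thbs2, which binds the same receptors and matrix proteases but does not activate TGF-beta, spanned 1.80 on the log2 scale (adjusted p = 3.28e-09). CC038 was highest, with 742.4, 932, 971.7 and 693.7 scaled TPM, and CC030 stood at 1027 and 632.6. CC040 (230.6 and 243.8) was lowest, and CC053 came next with a mean of 251.4 ± 27.4 (SD, n = 2). Other libraries reached into both ends: 6 lay above the lowest CC038 value and 3 below the highest CC040 value. CC038 was higher by 1.04 (SE 0.14, adjusted p = 9.60e-08).

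Thbs3, a thrombospondin of the pentameric group, spanned 1.89 on the log2 scale (adjusted p = 3.23e-06). CC038 was again highest, with 10.3, 13, 13.5 and 11.2 scaled TPM, and no library of any other strain reached its lowest value, since the highest of them stood at 9.56. The CC038 difference was 1.22 (SE 0.15, adjusted p = 1.24e-08). CC019 was lowest, at 2.55 and 3.15 (-0.72, SE 0.22, adjusted p = 0.0152).

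CC038 was the strain with the most members called higher: Thbs1 (0.75, SE 0.20, adjusted p = 0.00575) and Sparc (0.24, SE 0.09, adjusted p = 0.0485) besides Thbs2 and Thbs3. It has 4 libraries, and the SE for Sparc was 0.12 in CC012, a strain with 2. Smaller differences can thus be called in CC038, and counts of calls are not comparable between strains. The share of all genes called higher in CC038 is not given here. CC043 was called lower in Sparc, Thbs1 and Thbs2 and CC015 higher in Thbs1, Thbs2 and Tnn. CC075 had 2 calls each way, with Sparc and Tnc higher and Postn and Thbs1 lower. CC030 and CC071 both combined high Thbs1 with low Tnc. The plot of strain means shows that the strains at either end for Thbs1 tend to lie on the same side for Thbs2.

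**Figure D2:**
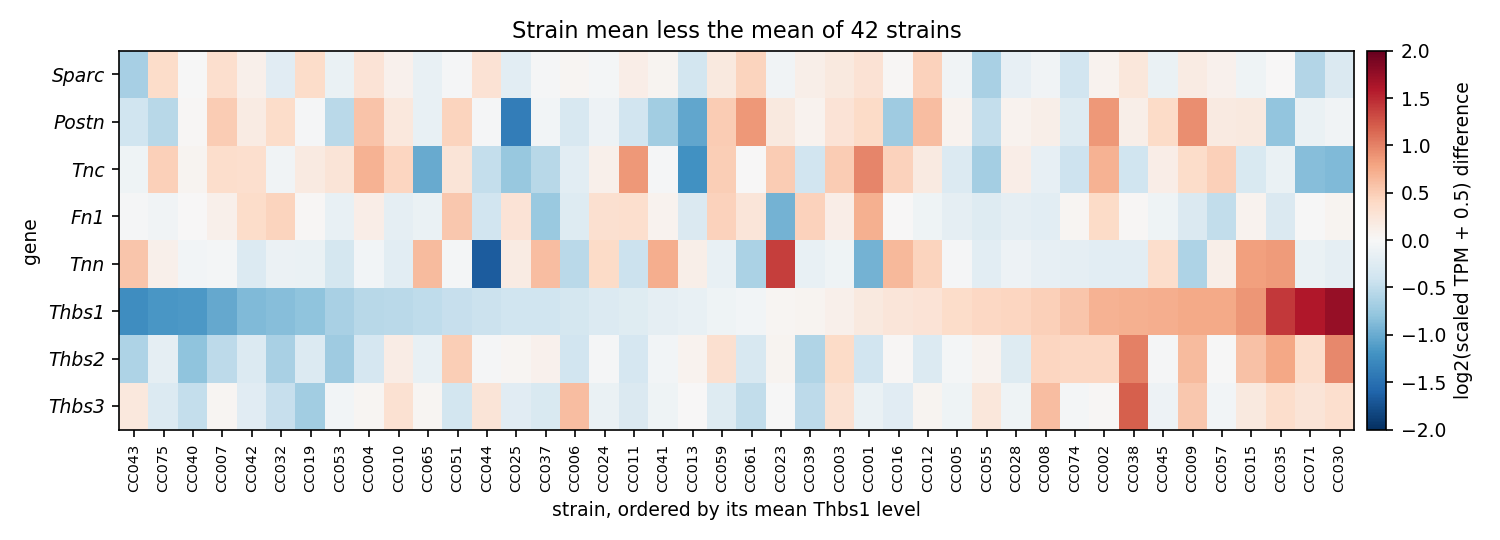
Strain mean of log2(scaled TPM + 0.5) less the mean over 42 strains (colour) for each gene (rows), with strains ordered by mean Thbs1 level. CC038 stands out in Thbs2 and Thbs3, CC025 and CC013 are low in Postn, CC023 is high and CC044 low in Tnn.

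The second question was which of these genes vary together. Over 42 strain means, 6 of the 28 pairs passed (100000 permutations, two-sided, adjusted over 28), all with positive r. As a background, the share of all 15760 tested genes with an r to the first-named gene at least as large in size was 0.0635% for Thbs1 with Thbs2, 1.06% for Thbs2 with Thbs3, 1.71% for Postn with Tnc, 5.06% for Sparc with Tnc, 5.55% for Thbs1 with Thbs3 and 12.4% for Sparc with Postn, so relations of the last sizes were not rare among genes. The 6 pairs fell into 2 sets that share no gene. The smallest p that the permutations can give is 1e-05. The thrombospondins form the first set. Thbs1 and Thbs2 were the closest pair, with r = 0.72 (rho 0.66, adjusted permutation p = 0.00028). Without CC030 and CC071, the strains farthest from the Thbs1 median, r was 0.68. Thbs2 and Thbs3 had r = 0.57 (rho 0.47, adjusted permutation p = 0.00084; 0.45 without CC030 and CC038) and Thbs1 and Thbs3 had r = 0.45 (rho 0.42, adjusted permutation p = 0.0138; 0.42 without CC030 and CC071).

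Sparc, Postn and Tnc form the other set. Sparc and Tnc had r = 0.57 (rho 0.56, adjusted permutation p = 0.00084; 0.58 without CC043 and CC055). Sparc and Postn had r = 0.46 (rho 0.47, adjusted permutation p = 0.0138; 0.42 without CC043 and CC055). Postn and Tnc had r = 0.46 (rho 0.48, adjusted permutation p = 0.0138), which was 0.31 without CC013 and CC025, so that this pair rests in part on those strains. Fn1 and Tnn were in no pair that passed by r. By rank, 7 pairs passed, the added one being Fn1 with Thbs3 (rho -0.45, adjusted permutation p = 0.0121). Positive values within both sets were also seen when the strain means were taken out: over the deviations of 92 libraries from their strain mean, r was 0.62 for Thbs1 with Thbs2, 0.71 for Thbs2 with Thbs3, 0.42 for Thbs1 with Thbs3, 0.67 for Sparc with Tnc, 0.67 for Sparc with Postn and 0.57 for Postn with Tnc. Outside the sets, Fn1 with Postn had 0.40, Tnc with Tnn 0.37, Fn1 with Tnc 0.34, Fn1 with Thbs1 -0.44 and Tnc with Thbs2 -0.43. These values within strains are a description, with no test.

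**Figure D3:**
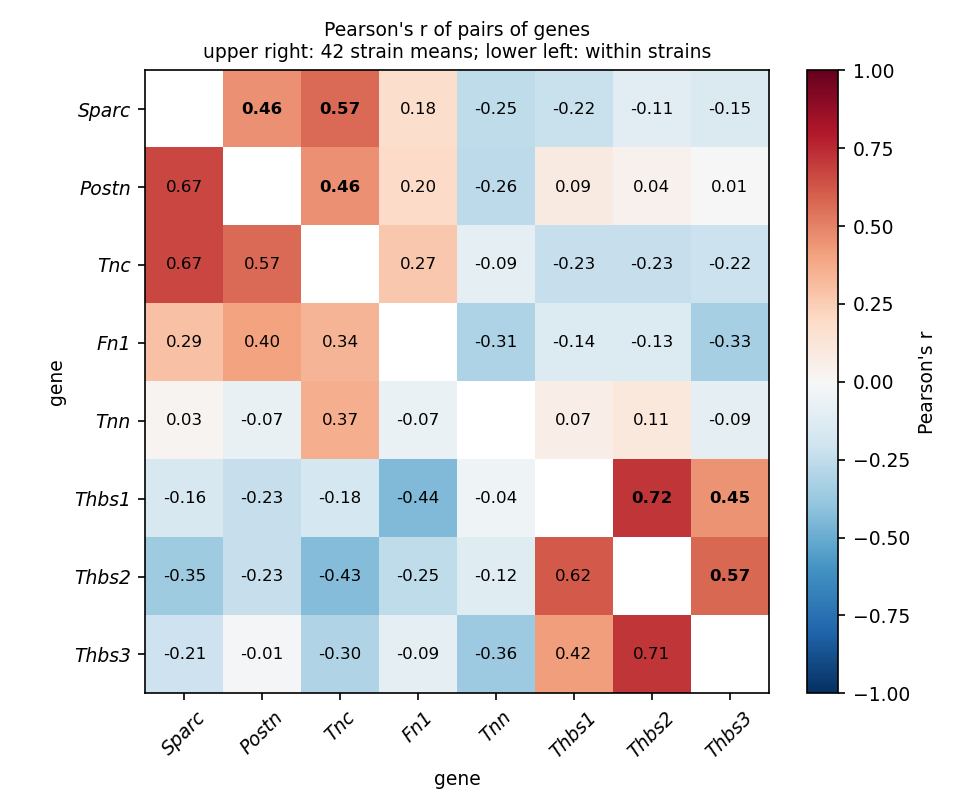
Pearson's r for each pair of genes, over 42 strain means above the diagonal (bold where the adjusted permutation p is under 0.05) and over 92 libraries less their strain mean below it. Sparc, Postn and Tnc form a block of positive values of 0.46 to 0.57 in the strain means, and the thrombospondins one of 0.45 to 0.72.

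The members were next set beside scores of cell types and pathways, each the mean z-score of a list of marker genes, over the same 42 strains. Of 56 relations, 15 passed (adjusted over 56), 12 of them positive, and 12 passed by rank. The share of all tested genes related at least as strongly to the same score was 0.825% for Thbs1 with chondrocyte, 0.971% for Thbs2 with tendon and suture and 2.14% for Sparc with osteoblast. It was 16.03% and 12.8% for Thbs1 and Thbs2 with osteoblast, 9.59% and 9.32% for Tnn and Sparc with the TGF-beta and YAP targets and 8.60% for Thbs1 with proliferation, so relations of those sizes were common among genes. Sparc and Tnc followed the osteoblast score, with r of 0.68 (rho 0.65, adjusted permutation p = 0.00056; 0.64 without CC030 and CC071) and 0.58 (rho 0.60, adjusted permutation p = 0.00084; 0.48 without those strains). Thbs2 went against it (r = -0.47, rho -0.45, adjusted permutation p = 0.0086), and so did Thbs1 (r = -0.44, rho -0.30, adjusted permutation p = 0.0157), but the Thbs1 relation rests on CC030 and CC071, since r was -0.15 without them. The Thbs2 relation lost its call without them too (r = -0.36, adjusted permutation p = 0.0842). The Thbs1 relation also lost its call without CC051 replicate 2 (r = -0.31, adjusted permutation p = 0.129).

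All 3 thrombospondins followed the tendon and suture score, a list that includes Scx, Tnmd and Twist1. The r values were 0.60 for Thbs2 (rho 0.50, adjusted permutation p = 0.000933; 0.58 without CC002 and CC008), 0.53 for Thbs1 (rho 0.47, adjusted permutation p = 0.00381; 0.52 without them) and 0.53 for Thbs3 (rho 0.43, adjusted permutation p = 0.00381; 0.51 without them). CC038, highest in Thbs2 and Thbs3, also had the highest summed level of these markers, 553.2 scaled TPM. By the score, on which the relations rest, CC038 had only rank 4 (0.56), and CC008 was highest (0.77). Thbs1 further followed the chondrocyte score (r = 0.50, rho 0.52, adjusted permutation p = 0.0056; 0.42 without CC002 and CC035) and the smooth muscle and pericyte score (r = 0.49, rho 0.50, adjusted permutation p = 0.00784; 0.49 without CC015 and CC044). The part of these cell types in the levels was not tested.

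Other relations were weaker. Thbs1 and Thbs3 followed the proliferation score (r = 0.41, rho 0.43, adjusted permutation p = 0.0296, and r = 0.47, rho 0.51, adjusted permutation p = 0.0086; 0.42 and 0.54 without CC023 and CC074). The Thbs1 relation lost its call without CC030 and CC071 (r = 0.39, adjusted permutation p = 0.0557). The Thbs3 relation lost its call without CC016 replicate 2 (r = 0.30, adjusted permutation p = 0.149). Postn followed the chondrocyte score (r = 0.38, rho 0.40, adjusted permutation p = 0.044; 0.46 without CC002 and CC035), a call kept in 78 of 95 fits that each left out 1 library. Tnn followed the smooth muscle and pericyte score (r = 0.41, rho 0.16, adjusted permutation p = 0.0363), but this rests on CC015 and CC044, without which r was 0.10. A list of TGF-beta and YAP target genes, such as Ccn2 and Ankrd1, went with Tnn (r = 0.47, rho 0.34, adjusted permutation p = 0.0086; 0.31 without CC015 and CC044) and against Sparc (r = -0.47, rho -0.50, adjusted permutation p = 0.0086; -0.46 without them). Its relation to Sparc was not called on the deposited TPM without scaling (r = -0.18, adjusted permutation p = 0.388). Fn1 passed with none of the 7 scores, and no member passed with the macrophage score over strain means. Over the deviations of 92 libraries from their strain mean, r with the macrophage score was 0.59 for Thbs3 and 0.39 for Thbs2. It was -0.36 for both Tnc and Tnn, and from -0.27 (Sparc) to 0.19 (Thbs1) for the other members. Thbs3 with the proliferation score had 0.01 there. These values within strains were not tested.

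Among 11903 genes with a mean of at least 1 scaled TPM, the gene nearest to Sparc over 42 strains was Col1a2, a chain of type I collagen (r = 0.86), then Slc36a2 (0.82) and Col22a1 (0.81). Tnc was nearest to Vdr, the vitamin D receptor (0.74), Rhbdl3 (0.73) and Dapk2 (0.72). Postn was nearest to Zfp870 (0.68), Olfml2b (0.68) and Elmod3 (0.65). Thbs1 was nearest to Cemip, a hyaluronan-degrading protein (0.80), Prkg1 (0.79) and Sorbs2 (0.79). Thbs2 was nearest to Sulf2, a heparan sulfate sulfatase (0.78), Spats2l (0.75) and Itgbl1 (0.75), and Thbs3 to Spats2l as well (0.74), Scara3 (0.74) and Calm3 (0.73). Fn1 was nearest to Crtc3 (0.74), Hivep1 (0.70) and Fbxo31 (0.68), and Tnn to Nufip1 (0.68), Rnf20 (0.67) and Rgs16 (0.65). Spats2l is the one gene named for 2 members, both thrombospondins. The named genes were picked from 11903 by these r values, so their size is no test. Over the deviations of 92 libraries from their strain mean, r differed widely between the named genes. It ran from -0.05 (Zfp870 with Postn) and 0.16 (Rnf20 with Tnn) to 0.84 (Itgbl1 with Thbs2).

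The third question was whether strains differ in which transcript of a gene they use. Fn1 has 1 transcript in the table, so its splicing is not analysed here. For Postn and Tnc, 10 transcripts had a mean of at least 1 TPM, and the share of each in its gene's TPM was tested in the same way. All 10 shares passed the strain test, where 38.1% of 31125 shares did, but those of the minor forms Postn-207 and Postn-208 did not with a pseudocount of 0.1 (adjusted p = 0.115 and 0.0954). Of the levels of these transcripts and of the Fn1 transcript, 10 of 11 passed, where 53.3% of 38899 transcripts did. These backgrounds include many transcripts of lower level than those named. With a stricter filter, at 1 TPM, 44.4% of shares and 74.7% of transcripts passed. Shares come from the authors' estimates and depend on the transcript models used. Whether a difference in share is one of transcript use or of how reads were assigned to models was not tested.

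Tnc split the strains in 2. The share of Tnc-201, which has the coding sequence of Tnc-204 without its noncoding first exon, was 50.6% and 54.5% in CC037, 52.3% and 49.9% in CC065, 50.1% and 48.6% in CC039, and 49.9%, 55.8%, 42.6% and 46.6% in CC025. In the other 85 libraries it was at most 17.8%. The gap of 24.8 points between these sides has no strain on both sides, and the strain effect on the share was past the threshold (adjusted p = 6.16e-28). The share of Tnc-204, which begins with that exon, was at most 53.1% in the 10 libraries and at least 69.9% in the rest. In levels, Tnc-204 had strain means of 53.5 to 84.5 scaled TPM in the 4 strains and 85.4 to 380 in the other 38, and Tnc-201 of 60.4 to 90.2 against 12.8 to 66.3. The share that picked the 4 strains is made of these levels, so this is a description and no test. Total Tnc was called lower in CC025 and CC065 (-0.76 and -1.01, SE 0.14 and 0.20, adjusted p = 9.33e-05 and 0.000184), and not in CC037 (-0.55, SE 0.20, adjusted p = 0.0556) or CC039 (-0.37, SE 0.20, adjusted p = 0.234).

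Postn-206, the short form with the junction shown above, also fell into 2 ranges. Its share of Postn was 3.15% to 11.1% in all 38 libraries of 18 strains and 0.334% to 1.88% in all 57 libraries of the other 24 strains, with no strain on both sides (adjusted p of the strain effect 6.48e-33). CC028, at 10.8% and 11.1%, had the highest mean share and CC074 the lowest, 0.366%. CC025, the strain lowest in total Postn, was on the high side at 8.33%, 9.40%, 8.04% and 7.78%. Strain means of total Postn overlapped in part, at 128.3 to 510.9 scaled TPM on the high side (median 303.7) and 202.6 to 629.1 on the low side (median 371.2), with CC025, CC013 and CC035 below and CC009, CC061 and CC002 above the range of the opposite side.

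**Figure D4:**
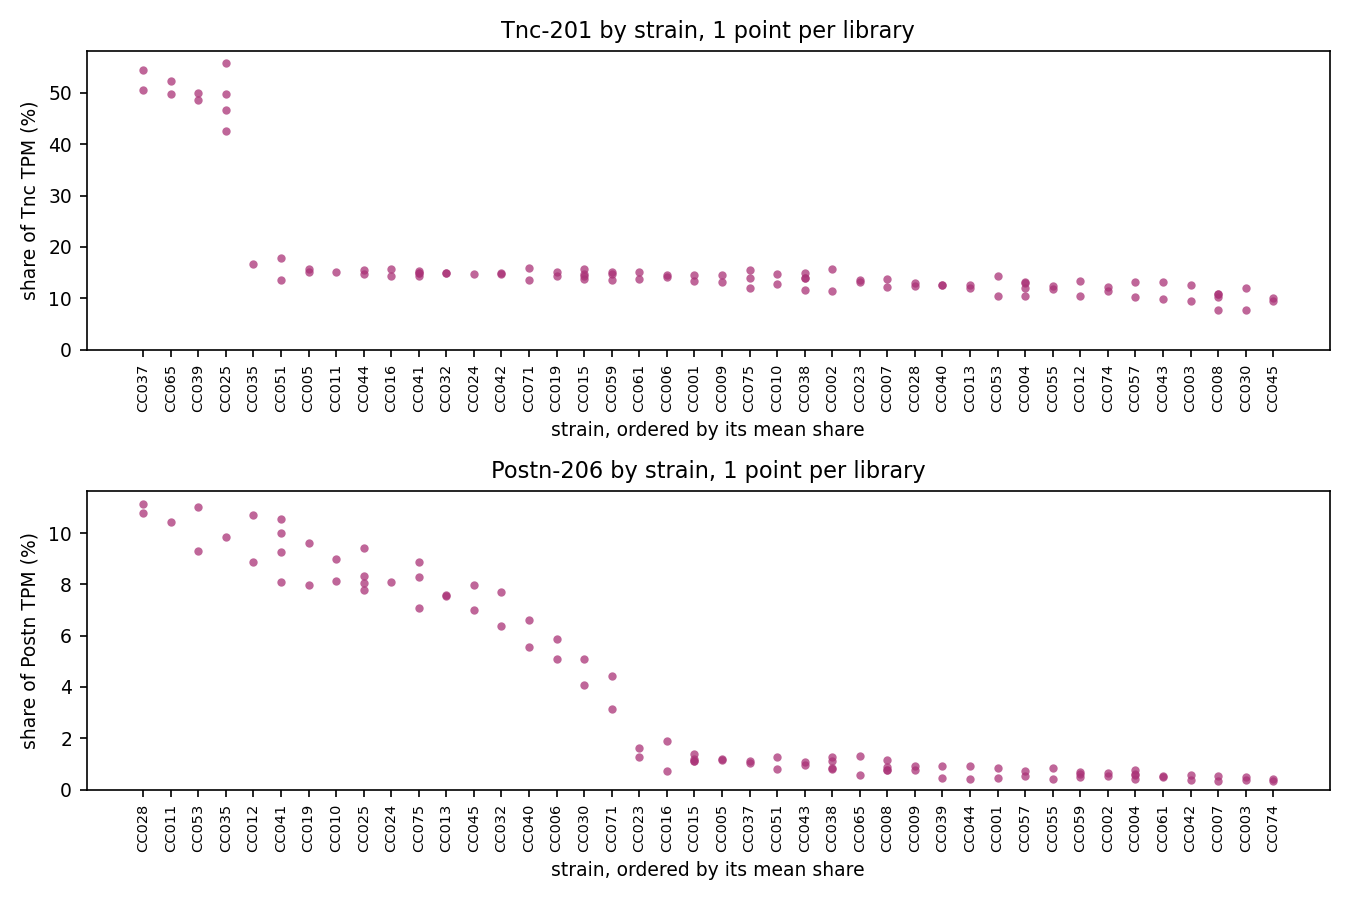
Share of Tnc-201 in Tnc (top) and of Postn-206 in Postn (bottom), in percent of TPM, with 1 point per library and strains ordered by mean share. CC037, CC065, CC039 and CC025 stand at 42.6% or more of Tnc against at most 17.8% elsewhere, and 18 strains stand at 3.15% or more for Postn-206 against at most 1.88%.

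The long Postn forms differed by degree. Postn-204, with neither alternative exon, was the main form, with a median share of 43.5%, ahead of Postn-203 at 27.5% and Postn-201 at 23.6%, while Postn-202 with both exons held 1.50%. By strain mean, 22 of the 42 strains kept the order Postn-204, Postn-203, Postn-201. Postn-204 was first in 33, Postn-203 in 7 and Postn-201 in 2, CC071 (36.2%) and CC074 (36.4%). CC030 had the lowest Postn-204 share, 2.29% and 4.55% in its libraries, with 18.5% or more in all 93 libraries of the other strains. CC005 had the highest mean share of Postn-204, 67.3%.

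Counted over the 4 long forms, the 81-nt exon was in 30.3% of Postn TPM at the median (9.29% to 54.6%) and the 84-nt exon in 26.4% (12.2% to 52.3%). In CC030 the 81-nt exon was in 52.7% and 54.6% and the 84-nt exon in 52.3% and 44.4%, both the highest strain means. CC071 was second for the 84-nt exon, at 41.1% and 43.6%, and CC044 for the 81-nt exon, at 41.1% and 42.1%. CC005 was lowest for both, with means of 15.1% ± 0.956 and 16.8% ± 1.38 (SD, n = 2). By strain mean CC030 was thus highest and CC005 lowest for both exons, while the lowest single library was CC051 replicate 1, at 9.29% and 12.2%.

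**Figure D5:**
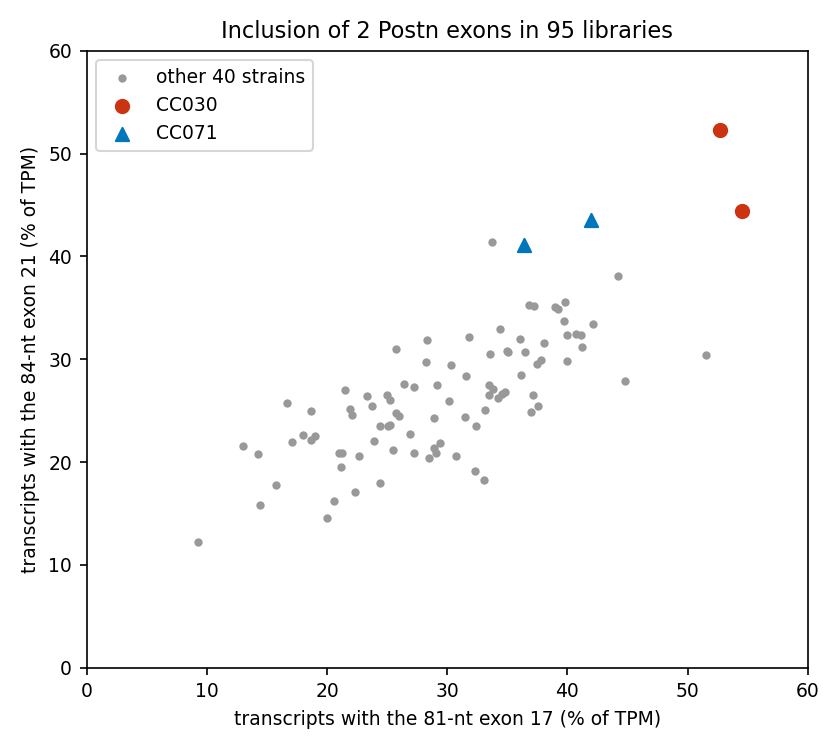
Share of Postn TPM over the 4 long transcripts that includes the 81-nt exon 17 (horizontal) and the 84-nt exon 21 (vertical), with 1 point per library. CC030 lies at the top right, at 52.7% and 54.6% for exon 17, and the CC071 libraries are at 41.1% and 43.6% for exon 21.

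Relations of exon inclusion to the 7 scores were added after the transcripts had been seen. Of 21 relations, 5 passed (adjusted over 21), the largest being that of the 81-nt exon with the macrophage score (r = 0.52, rho 0.46, adjusted permutation p = 0.00987; 0.40 without CC030 and CC041). Without CC030 and CC071 0 of the 21 passed by the adjusted permutation p and 2 had an unadjusted permutation p under 0.05, but the sizes differed. The osteoblast relations of the 81-nt and 84-nt exons were r = -0.17 and -0.02 without those strains and so rest on them. The macrophage and tendon and suture relations of the 81-nt exon were r = 0.40 and 0.42 there (main value 0.48 for the second of these; adjusted permutation p = 0.123 for both). By rank, 2 of the 21 passed. The 273-nt exon of Tnc-203 was in 4.94% of the long Tnc forms at the median (2.61% to 18.3%). CC044 had the highest mean, at 12.9% and 15.1%, and CC053 stood at 11.3% and 12.0%. CC030 had the highest library, 18.3%, and 4.30% in its other one, so the libraries of that strain did not agree.

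Genes of the same pathway were taken from 4 lists. Of 26 measured relatives of the members, 25 passed the strain test (background 81.5%), with a median intraclass correlation of 0.60 against 0.47 for all genes. The 3 with the highest means were Fstl1 (a follistatin-like relative of SPARC, 211.5 scaled TPM), Fbln2 (fibulin-2, 136.8) and Emilin1 (81.2). The widest ranges were those of Comp, the cartilage thrombospondin, from 75.9 ± 4.58 (SD, n = 2) in CC007 to 4.59 ± 4.41 (SD, n = 2) in CC043, of Ccn3, from 184.6 ± 74.5 (SD, n = 2) in CC030 to 10.9 ± 7.94 (SD, n = 2) in CC051, and of Ccn5, from 123.7 ± 39.3 (SD, n = 4) in CC038 to 11.3 ± 2.96 (SD, n = 2) in CC007. Fstl1 too was highest in CC038, at 443.5 ± 61.3 (SD, n = 4). Vtn, vitronectin, did not pass and had a mean of 0.126.

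Of 19 measured receptors, 18 passed (94.7%, where 81.5% of all genes did). Calr (554 scaled TPM), which takes part in thrombospondin binding at the cell surface, and the integrin subunits Itgb1 (228.4) and Itgb5 (152.3) had the highest means, and Itgb1 spanned only 0.42 on the log2 scale (adjusted p = 0.0124). The widest ranges were those of Stab1, a scavenger receptor that takes up SPARC, from 155 ± 50.0 (SD, n = 2) in CC030 to 1.66 ± 1.43 (SD, n = 4) in CC041, Cd36, a thrombospondin receptor, from 35.0 ± 27.8 (SD, n = 2) in CC030 to 0.422 ± 0.177 (SD, n = 2) in CC005, and Ptprz1, a tenascin-binding phosphatase, from 69.2 ± 6.11 (SD, n = 2) in CC012 to 1.88 ± 0.369 (SD, n = 2) in CC071. Stab1 and Cd36 are also made by macrophages, whose summed markers were highest in CC030 and lowest in CC041, and their part in these ranges was not tested. Lrp1 did not pass (adjusted p = 0.0874).

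Of 12 genes of matrix assembly and processing, 10 passed (83.3%), a share near the 81.5% of all genes. Lox, which crosslinks collagen, had a mean of 280.6 scaled TPM and was highest in CC030, at 459.4 ± 65.8 (SD, n = 2), and lowest in CC044. Mmp14 (232.1) did not pass (adjusted p = 0.102), nor did Fam20c, the kinase of secreted matrix proteins (adjusted p = 0.195), while Mmp2 (152.9) did. F13a1, the factor XIII subunit that crosslinks fibronectin, had the widest range, from 292.7 ± 0.911 (SD, n = 2) in CC030 to 0.434 ± 0.155 (SD, n = 2) in CC037. Macrophages make it too, the macrophage sum was highest in CC030, and their part in this range was not tested. Plat was highest in CC043 (32.7 ± 10.0, SD, n = 2) and lowest in CC075, and Adamts1, a protease that cuts thrombospondins, was highest in CC038 (58.3 ± 9.94, SD, n = 4).

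All 13 TGF-beta and YAP target genes passed, where 81.5% of all genes did. Ccn1 and Ccn2 had the highest means, 71.1 and 42.7 scaled TPM. Ltbp2 (73.1 ± 7.18, SD, n = 2) and Ccn2 (95.4 ± 8.66, SD, n = 2) were highest in CC030 and Ankrd1 in CC071 (7.88 ± 1.01, SD, n = 2), while Ccn1 was highest in CC045 (152.9 ± 12.3, SD, n = 2). Ankrd1 was lowest in CC044. The score of this list and Thbs1 had r = 0.31 (rho 0.29, adjusted permutation p = 0.127; 0.25 without CC015 and CC044), which did not pass. Ccn1 and Ccn2 are in the list of relatives too.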

How the data were processed

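Total RNA libraries were made from 200 ng of RNA with a stranded kit that depletes ribosomal RNA and keeps RNAs above 200 nt, per the labels' protocols. The deposited values are TPM for each Ensembl transcript: each column adds up to 1000000, whatever the word counts in the table's name. Bowtie and mm9 appear in the submitters' processing notes. No source used here names the quantifying tool, and read depth and counting error are unknown. Transcript identifiers were matched to GENCODE M21 (91225 of 94545) and summed into 37945 genes; members' coordinates are not given except for RefSeq promoter windows (GRCm38.p6).

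TPM were divided by a trimmed mean of log ratios per library (genes of mean at least 1 TPM, 30% trimmed by ratio, 5% by level; factors 0.793 to 1.24). A feature was tested if 2 libraries or more had 0.5 TPM of it, on log2(scaled TPM + 0.5), which understates changes of low genes, using limma 3.58.1 (trended variance, residual df 53) over the 39 strains with 2 or more libraries. Shares entered as log2 of a transcript over the other transcripts of its gene. Each strain was also set against the unweighted mean of the others. Benjamini-Hochberg adjustment covered all features tested, at 0.05. Replicate numbers follow accession order and pair nothing. Relations used Pearson's r and Spearman's rho over 42 strain means with 100000 permutations (Python 3.11.15, scipy 1.17.1). The fits were tested on simulated data.

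The members and all lists were chosen with earlier results of these data known. Named genes are the 8 members, transcripts of Fn1, Tnc and Postn with a mean of at least 1 TPM, the 3 highest and 3 widest-ranging called genes of each pathway list, the 3 nearest genes of each member and the 3 highest and lowest strains; pathway genes that failed the test are named beside them. A gene that this rule would name is not reported here. Alternatives varied scaling, pseudocount, filter, variance trend, repeat run, title-number subsets and each library.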

Additional observations from a re-analysis of the deposited data

Results flagged for a closer look

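In strains with 4 libraries, 1 library stood apart from the other three by the 95% critical value of Dixon's test in 4 of 66 groups tested, where chance flags about 1 in 20. Fn1 was at 492.6 scaled TPM in CC038 replicate 4, with the others at 326 to 336.1. Tnn was at 69.4 in CC008 replicate 2 (others 47.1 to 50.8) and at 85.9 in CC038 replicate 1 (others 39.2 to 46.5). Inclusion of the 84-nt Postn exon was 24.9% in CC015 replicate 1, with the others at 20.9% to 21.4%.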

How the results depend on the processing

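The depth behind these values is unknown, and the meaning of the title numbers is not given. Some strains named as highest or lowest changed with the scaling. On deposited TPM without scaling, CC030 was highest for Thbs2, CC001 for Sparc and CC002 for Postn, and CC037 was lowest for Fn1 and CC040 for Thbs1. With scaling to protein-coding genes, CC030 was highest for Thbs2, and CC055 was lowest for Sparc and CC040 for Thbs1. Across 12 alternatives and 92 fits that each left out 1 library, the strain effects of Postn, Tnc, Tnn, Thbs1, Thbs2 and Thbs3 stayed past the threshold. The 6 called pairs stayed positive across 11 alternatives and 95 leave-outs. Fn1 moved past it on deposited TPM without scaling (range 1.87, adjusted p = 0.0461), among strains with close title numbers (1.19, adjusted p = 0.0256) and in 15 of the leave-outs (CC004 replicate 1, 2 or 4, CC006 replicate 2, CC007 replicate 1 or 2, CC012 replicate 2, CC016 replicate 1 or 2, CC025 replicate 3, CC028 replicate 1 or 2, CC041 replicate 1 and CC043 replicate 1 or 2). Over all 92 its range was 1.54 to 1.76 and its adjusted p 0.0178 to 0.149; the cause was not tested. Among strains with distant title numbers alone (20 strains), Sparc was not called (range 0.75, adjusted p = 0.224), strain calls fell to 7 higher and 6 lower, and 6 transcript shares, 7 receptors and 8 TGF-beta and YAP target genes passed. The shares of Postn-202, Postn-207, Postn-208 and Tnc-203 were those lost. There 41.3% of all genes, 13.1% of all transcript shares and 6 members passed. Among the 19 strains with close numbers, a subset of like size, 84.4% of genes and all 8 members passed, and the share of Postn-207 did not (adjusted p = 0.0808). The cause was not tested. The SD within strains was larger in strains with distant than with close numbers for all 8 genes (Tnc 0.34 against 0.14). The intraclass correlation was lower with distant than with close numbers for all 8 genes. It was 0.31 against 0.89 for Sparc, 0.52 against 0.94 for Tnc and 0.56 against 0.62 for Thbs3.

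The pairs Sparc with Postn and Postn with Tnc were not called on the highest-numbered library of each strain (r = 0.39 and 0.32, adjusted permutation p = 0.0529 and 0.189). Of relations to scores, Thbs1 with the osteoblast score was not called on deposited TPM (adjusted permutation p = 0.0652) or the highest-numbered libraries (0.152). Postn with the chondrocyte score was not called without CC030 and CC071 (0.0547), with median of ratios scaling (0.0543) or on the lowest-numbered libraries (0.106), although r was 0.39, 0.37 and 0.34, near the main 0.38. On those libraries Thbs3 with proliferation (r = 0.29, 0.169; on the highest-numbered libraries r = 0.28, 0.167) and Tnn with the TGF-beta and YAP targets (0.16) and with smooth muscle (0.152) were not called either, the last also not without CC009 replicate 1, CC023 replicate 2, CC044 replicate 1, CC051 replicate 2 or CC071 replicate 1. Relations of exon inclusion to scores fell from 5 to 0 without CC030 and CC071, to 3 on the highest-numbered libraries, and ran from 3 to 5 when 1 library was left out, 3 without CC030 replicate 1 or CC051 replicate 2. Of 7024 alternative values in all, 6929 kept their side of the threshold (or, for counts, stayed within 1.5 times). Most of these values come from fits that left out only 1 library. Ranges and counts have no sign to reverse. Only the relations called in the main fit could reverse, and 0 of them did.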

Other observations

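The CC030 sample sequenced 2 times gave member levels that differed between runs by -0.07 (Sparc) to 0.29 (Tnn) on the log2 scale, first run less second run. Thbs1, the gene that CC030 led, was at 959.6 and 880.4 scaled TPM in the runs, against 554.5 in the other CC030 library.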
